A study of Mus musculus with 9 samples.

Results

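The genes described here encode 8 transcription factors tied to the identity of organ capillaries: Gata4, Maf, Tfec, Tfeb, Tfe3, Mitf, Meox2 and Tcf15. They were chosen by name, 8 of the 52636 gene rows of the count table, and each matched exactly 1 row. The RNA was from mouse liver endothelium. Live cells were sorted for CD31 and for a VE-cadherin antibody injected into the living animal, and CD45-positive blood cells were gated out. Of the 9 libraries, 5 are labelled Erg and Fli1 double knockout and 4, the controls, wild type. Per the labels, mice of both groups were given tamoxifen to induce deletion, and cells were taken on day 7. The labels name neither the driver of the deletion nor the deleted exons, and give no other age for the mice.

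Liver sinusoids are wide capillaries whose endothelium is perforated, takes up waste from blood and lacks an organised basement membrane. GATA4, a zinc finger factor, is required in mouse liver endothelium for the sinusoidal state, and without it the vessels take on features of continuous capillaries. c-MAF, the basic leucine zipper factor encoded by Maf, is another factor of sinusoidal identity. TFEC, TFEB, TFE3 and MITF form the MiT/TFE family of basic helix-loop-helix leucine zipper factors, which bind E-box DNA as dimers. TFEB and TFE3 drive lysosomal and autophagy genes and are held in the cytoplasm when nutrients are plentiful, so transcript level is only part of their control. TFEC is known from macrophages, and MITF from melanocytes and osteoclasts. MEOX2, a homeodomain factor, and TCF15, a basic helix-loop-helix factor, act together in mouse heart endothelium, where they drive fatty acid uptake.

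The MiT/TFE genes resemble each other, so the coding sequence was compared to see whether reads could have been credited to the wrong relative. The longest identical coding run of each of 2 pairs is shown, as the longest and one of the shortest of the family.
Tfeb and Tfe3, chromosomes 17 and X: cagaagaaagacaatcacaacctaattga
Tfec and Mitf, both on chromosome 6: cagaaaaaggacaa
The Tfeb and Tfe3 run was the longest of all 6 pairs at 29 bases, and the Tfec and Mitf run was 14 bases. Over all annotated transcripts, 0 windows of 50 bases were shared between any of the 8 genes. Of the 8181 such windows of Maf, 380 (4.64%) lay in another gene, against 0 for each of the other members. Maf shares 440 exon bases with an antisense transcript, Gm15655, which held 127 counts in all libraries labelled knockout together and 180 in all controls, against 165204 counts of Maf in libraries labelled knockout and 218651 in controls. Strand use in counting is not stated, so reads of Maf and Gm15655 cannot be told apart there.

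Promoter windows, from 250 bases before to 50 after a start, were given by RefSeq (GRCm38.p6) for 5 of the 8 genes. Of these the Tfec window and the first Tfe3 window are printed because Tfe3 rose while Tfec had a negative estimate. Capitals mark GGAA or its reverse complement TTCC, the core that ETS proteins such as ERG and FLI1 recognise.
Tfec, minus strand, chr6:16898392-16898691: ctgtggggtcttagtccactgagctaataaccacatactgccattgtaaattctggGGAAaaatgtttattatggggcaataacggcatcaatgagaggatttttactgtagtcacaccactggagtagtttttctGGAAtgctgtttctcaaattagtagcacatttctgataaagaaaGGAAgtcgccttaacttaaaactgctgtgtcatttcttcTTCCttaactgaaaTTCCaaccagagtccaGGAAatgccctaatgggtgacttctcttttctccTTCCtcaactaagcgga
Tfe3, plus strand, chrX:7762411-7762710: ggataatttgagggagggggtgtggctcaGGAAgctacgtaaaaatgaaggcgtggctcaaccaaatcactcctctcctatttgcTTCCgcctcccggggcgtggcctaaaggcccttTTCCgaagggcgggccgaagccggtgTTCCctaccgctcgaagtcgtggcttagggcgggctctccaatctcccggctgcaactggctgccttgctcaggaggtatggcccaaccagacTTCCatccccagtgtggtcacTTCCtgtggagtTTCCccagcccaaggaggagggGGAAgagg
The Tfec window held 7 GGAA matches and the Tfe3 window 8, counted on both strands. Of 32851 windows of this length in the table, 96% hold at least 1 match, with a median of 3. The longer form CGGAAG was found once in the Tfe3 window, overlapping a GGAA match, and 0 times in the Tfec window, and 16.9% of all windows hold it. The E-box CACGTG, searched on both strands, had 0 matches in either window and is in 7.15% of all windows. These matches describe letters only, and no binding was measured here.

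The libraries held between 26791371 and 36401682 counts labelled knockout and between 31613059 and 34663989 in controls, and values below are CPM, counts scaled to a common library size after TMM correction (1 count was worth 0.0260 to 0.0368 CPM). Erg fell to 143 ± 10.9 CPM in libraries labelled knockout (SD, n = 5), against 312 ± 17.8 CPM in controls (n = 4, edgeR adjusted p = 2.61e-05). Fli1 was higher, at 147 ± 22.5 CPM in libraries labelled knockout and 100.1 ± 8.01 CPM in controls (edgeR adjusted p = 0.00636). Since Fli1 goes against its label at the level of whole-gene counts, the 5 are called libraries labelled knockout, and each direction is relative to that label. Stab2, a hyaluronan scavenger receptor gene that defines sinusoidal endothelium, averaged 4447 ± 1292 CPM in libraries labelled knockout and 5412 ± 138 CPM in controls. Cdh5 and Pecam1, the genes of the sorted surface proteins, did not pass the test, at log2 fold changes of -0.02 and -0.07. Libraries labelled knockout 2 and 3 lay at -53.2 and -26.8 on the second principal component, apart from 1, 4 and 5 at 11.7, 39.5 and 46.2, and the log2 fold change of each tested member is also given without them. Nothing in the labels ties each library to its own animal, so the tests measure the spread between these libraries.

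In the comparison of the groups, Gata4 fell, Tfe3 rose, and 4 members (Maf, Tfec, Tfeb and Mitf) did not pass the test. Meox2 and Tcf15 had too few counts to be tested. The background in this comparison is large: 29.3% of 14583 tested genes passed in either direction, 14.5% higher and 14.8% lower, so 2 of 6 tested members is near the background share. Groups did not overlap for 4 of the 8 members. Of these, Gata4, Maf and Tfe3 were among the 6 tested, against 27% of tested genes. Tcf15 was not tested and so lies outside that share, with at most 8 counts labelled knockout and at least 9 in controls. All log2 fold changes are libraries labelled knockout over controls, and adjusted p-values come from edgeR's quasi-likelihood test over all tested genes with a threshold of 0.05. The median log2 fold change of all tested genes was 0.01. In bulk RNA, fewer cells expressing a gene and less RNA per cell cannot be told apart.

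**Figure D1:**
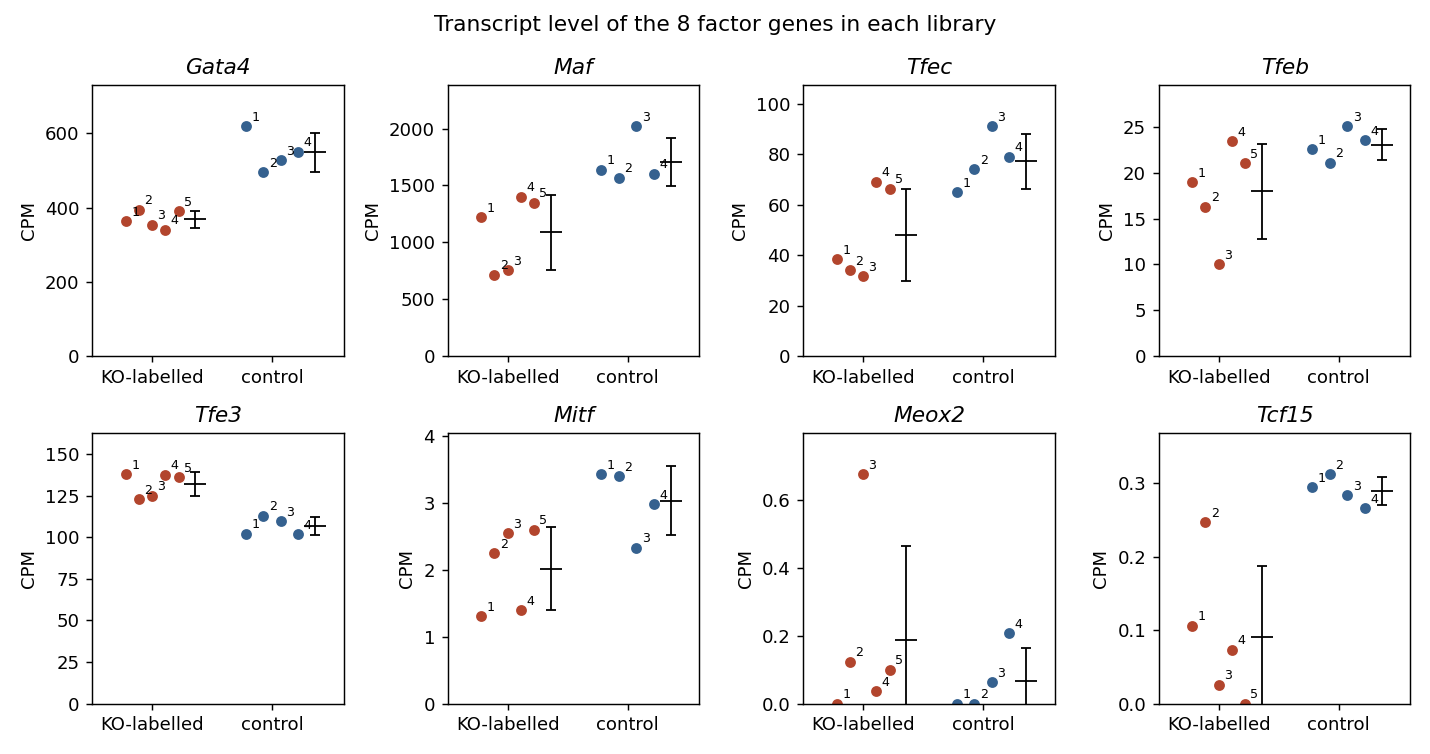
CPM of the 8 factor genes in each library, libraries labelled knockout left and controls right, with replicate numbers beside the points and mean ± SD as black bars (the lower ends for Meox2 and Tcf15 are cut at 0). The groups are separate for Gata4, Maf, Tfe3 and Tcf15, and Meox2 and Tcf15 stay below 1 CPM in all 9 libraries.

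Gata4 (ENSMUSG00000021944, GRCm38 chromosome 14, 63198922 to 63271692, minus strand) stood at 364, 394, 353, 340.1 and 389.8 CPM in libraries labelled knockout 1 to 5. In controls 1 to 4 it stood at 619, 496, 528 and 551 CPM. Every library labelled knockout was below every control, and the spread among them was small. The means were 368 ± 23.3 CPM (SD, n = 5) in libraries labelled knockout and 549 ± 52.3 CPM (n = 4) in controls. The log2 fold change was -0.58 ± 0.09 (SE, edgeR adjusted p = 0.00172), so the transcript was 1.49-fold lower and remained abundant. Without libraries labelled knockout 2 and 3 the log2 fold change was -0.58 (edgeR adjusted p = 0.00337).

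Gata4 is also expressed by hepatic stellate cells, and their markers were read beside it. Lrat, the retinol esterifying enzyme gene that defines those cells, reached at most 0.78 CPM in any library, and the 11 markers of stellate cells and fibroblasts together made 7.29 to 28.1 CPM in libraries labelled knockout and 7.09 to 11.8 CPM in controls. Of the 8 tested, Colec11 and Pdgfra rose and 0 fell. The Colec11 call ended under limma-voom, and without libraries labelled knockout 2 and 3 the counts were 2 and 1. Their part in the Gata4 values was not tested.

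The other GATA genes and their FOG cofactors gave 0 calls in either direction among 4 tested of 7, at a median log2 fold change of -0.03, and 0 of the 4 had an unadjusted p under 0.05. DESeq2 called Gata6 higher, limma-voom called 0, and 1 was lower without library labelled knockout 5. Gata2, the GATA factor of blood and endothelium, averaged 95.8 ± 20.6 CPM in libraries labelled knockout and 89.4 ± 8.86 CPM in controls. Zfpm1 and Zfpm2, the FOG cofactors, lay at log2 fold changes of -0.17 each. Gata6, the close relative of Gata4, had 0.423, 8.98, 1.97, 0.626 and 0.167 CPM in libraries labelled knockout 1 to 5. Its controls had 0.229, 0.219, 0.567 and 0.738 CPM. The high values were those of libraries 2 and 3, so the difference of 2.46 ± 1.10 on the log2 scale (SE, edgeR adjusted p = 0.123) became -0.12 (adjusted p = 0.900) without them.

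Maf (ENSMUSG00000055435, chromosome 8, 115682942 to 115707794, minus strand) had 1222, 713, 756, 1399 and 1349 CPM in libraries labelled knockout 1 to 5. The controls had 1639, 1569, 2020.0 and 1602 CPM. The groups did not overlap, but the libraries labelled knockout fell into a lower pair, 2 and 3, and 3 higher ones. The means were 1088 ± 329 CPM in libraries labelled knockout (SD, n = 5) and 1707 ± 210.3 CPM in controls (n = 4). The log2 fold change of -0.65 ± 0.22 (SE) narrowly missed the threshold (edgeR adjusted p = 0.0521), and its unadjusted 95% interval ran from -1.15 to -0.15. Without libraries labelled knockout 2 and 3 the difference was smaller, at -0.36, yet passed (edgeR adjusted p = 0.0462). It also passed without library labelled knockout 4 (-0.76, edgeR adjusted p = 0.0371) or 5 (-0.74, 0.0471), by DESeq2 (-0.64, 0.0152) and by limma-voom (-0.69, 0.0493). Of 20 alternatives, 8 called Maf and 12 did not, and the largest edgeR adjusted p was 0.137, without control 3.

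Macrophages also express Maf and Tfec. The 13 macrophage and Kupffer cell markers together made 470.0, 824, 144, 252 and 121 CPM in libraries labelled knockout 1 to 5, and 586, 338, 158 and 330.2 CPM in controls 1 to 4. Of the 13, 0 were called by edgeR, DESeq2 or limma-voom, and 0 had an unadjusted p under 0.05. The library labelled knockout with the highest sum, 2, had the lowest Maf, and the one with the lowest sum, 5, had the second highest. The one with the second lowest sum, at 144 CPM, had the second lowest Maf. Among controls, the lowest sum, 158 CPM, went with the highest Maf, and the highest sum, 586 CPM, with the second highest. Tfec in controls ran in inverse order to the sums, from 91.1 CPM in control 3, with the lowest sum, to 64.9 CPM in control 1, with the highest. In libraries labelled knockout Tfec was lowest in library 3, at 31.7 CPM, and highest in library 4, at 69.2 CPM. The part of macrophages in the Maf and Tfec values was not tested.

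The rest of the MAF family and its BACH partners moved differently. Of 6 tested of 8, 3 were higher and 0 lower, with a median log2 fold change of 0.19, and the 3 keep that count without libraries labelled knockout 2 and 3. Mafk, a small MAF that lacks an activation domain, averaged 116 ± 11.6 CPM in libraries labelled knockout and 86.4 ± 8.40 CPM in controls (log2 fold change 0.43 ± 0.10, SE, edgeR adjusted p = 0.00906). Maff, another small MAF, averaged 23.5 ± 14.9 CPM in libraries labelled knockout and 6.74 ± 1.605 CPM in controls, and passed at a log2 value of 1.80 ± 0.46 (SE, edgeR adjusted p = 0.0165). That rise was 3.49-fold with all libraries and 1.999-fold without libraries labelled knockout 2 and 3, and its call ended under limma-voom and without control 2 or 3. Bach2, a repressor that pairs with small MAFs, rose to 27.8 ± 7.94 CPM in libraries labelled knockout, against 13.5 ± 3.97 CPM in controls (log2 fold change 1.04 ± 0.27, SE, edgeR adjusted p = 0.0161). Mafg, the remaining small MAF, and Bach1 were not called, at log2 fold changes of -0.05 and -0.15.

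Within the MiT/TFE family, Tfe3 rose while the 3 others had negative estimates that did not pass. Tfe3 (ENSMUSG00000000134, chromosome X, 7762560 to 7775202, plus strand) had 138, 123, 125, 138 and 136 CPM in libraries labelled knockout 1 to 5. Controls 1 to 4 had 102, 113, 109.6 and 102 CPM. Every library labelled knockout was above every control. The means were 132 ± 7.38 CPM in libraries labelled knockout (SD, n = 5) and 107 ± 5.56 CPM in controls (n = 4). The difference was 0.31 ± 0.07 on the log2 scale (SE, edgeR adjusted p = 0.00835), or 1.24-fold. Tfe3 is X-linked, and the sexes, read from Xist and Ddx3y, were 3 female and 2 male among libraries labelled knockout and 1 female and 3 male among controls. Tfe3 ranged from 109.6 to 138 CPM in female libraries and from 102 to 138 CPM in male ones, and with a sex term in the fit its log2 fold change was 0.29 (edgeR adjusted p = 0.0218). It was 0.37 without libraries labelled knockout 2 and 3 (edgeR adjusted p = 0.00416).

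Tfec (ENSMUSG00000029553, chromosome 6, 16833373 to 16898441, minus strand) had 38.3, 33.9, 31.7, 69.2 and 66.3 CPM in libraries labelled knockout 1 to 5. Controls had 64.9, 74.2, 91.1 and 79.0 CPM. Libraries 1, 2 and 3 were below all controls, and 4 and 5 lay just above the lowest control. The means were 47.9 ± 18.3 CPM in libraries labelled knockout (SD, n = 5) and 77.3 ± 10.9 CPM in controls (n = 4). The log2 fold change was -0.69 ± 0.25 (SE, edgeR adjusted p = 0.0655). It passed by DESeq2 (-0.69, adjusted p = 0.0279) and limma-voom (-0.77, 0.0419), with a sex term (-0.90, edgeR adjusted p = 0.0218), and without library labelled knockout 4 (-0.86, 0.0256) or 5 (-0.83, 0.0369). Without libraries labelled knockout 2 and 3 it was -0.41 (edgeR adjusted p = 0.174). Of 20 alternatives, 7 called Tfec and 13 did not.

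Tfeb (ENSMUSG00000023990, chromosome 17, 47737030 to 47792419, plus strand) had 19.0, 16.3, 10.004, 23.5 and 21.1 CPM in libraries labelled knockout 1 to 5, and 22.6, 21.1, 25.1 and 23.6 CPM in controls. The groups overlapped, and library labelled knockout 3 was lowest. The log2 fold change of -0.36 ± 0.21 (SE) did not pass (edgeR adjusted p = 0.219), with an unadjusted 95% interval from -0.83 to 0.10. Without libraries labelled knockout 2 and 3 it was -0.12 (edgeR adjusted p = 0.433).

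Mitf (ENSMUSG00000035158, chromosome 6, 97807052 to 98021349, plus strand) was scarce. It had 1.31, 2.25, 2.55, 1.40 and 2.60 CPM in libraries labelled knockout 1 to 5, against 3.44, 3.40, 2.33 and 2.98 CPM in controls. Counts per library lay between 37 and 98 in those labelled knockout and between 74 and 109 in controls, and 2 of the 5 libraries labelled knockout lay above the lowest control. The log2 fold change was -0.58 ± 0.26 (SE, edgeR adjusted p = 0.124), and -0.77 without libraries labelled knockout 2 and 3 (edgeR adjusted p = 0.0871). Mitf has several alternative starts, which a gene-level count cannot separate.

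**Figure D2:**
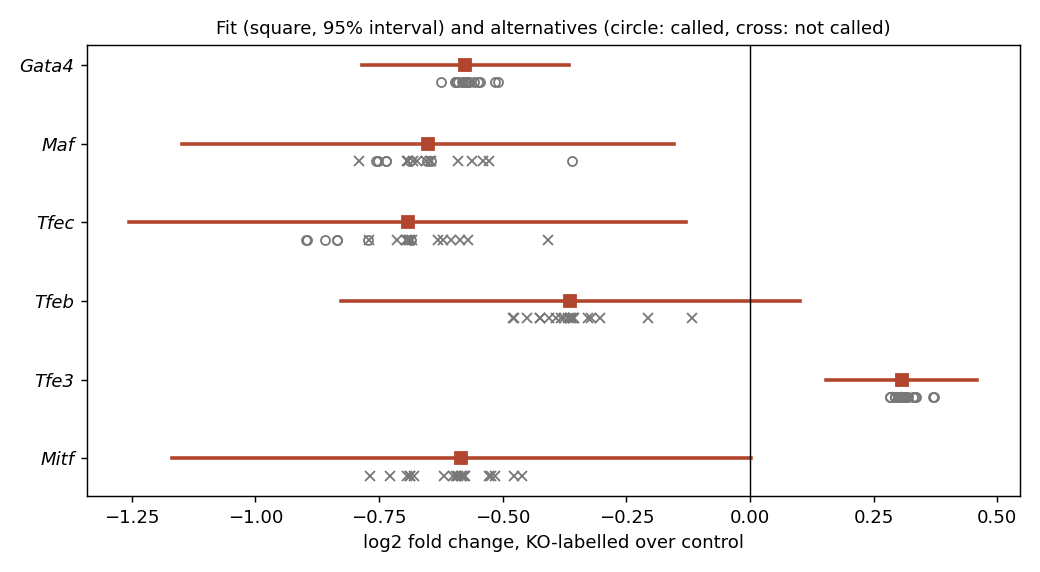
Log2 fold change, libraries labelled knockout over controls, of the 6 tested factors: squares with unadjusted 95% intervals from edgeR, and below each the alternative tests, scalings, filters and left-out libraries as circles where called and crosses where not. Gata4 lies near -0.58 and Tfe3 near 0.31, while Maf and Tfec move across the threshold.

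Per length, the 4 MiT/TFE transcripts together made 26.3 ± 4.66 CPM per kilobase of exon model in libraries labelled knockout (SD, n = 5) and 29.9 ± 2.36 in controls (n = 4). Tfe3 made 47.0% to 63.2% of this sum in libraries labelled knockout and 35.9% to 41.0% in controls. Tfec made 26.6% to 39.1% in libraries labelled knockout and 42.7% to 49.5% in controls. The ranges of both shares were separate between the groups, a description without a test. Tfeb made 8.27% to 13.3% in libraries labelled knockout and 12.5% to 14.7% in controls, and Mitf at most 1.93% and 2.04%. All shares depend on the exon model, which merges the annotated transcripts of a gene: 9261 bases for Tfe3 and 5594 for Tfec. Before division by length, Tfe3 exceeded Tfec in every control, at 102 to 113 against 64.9 to 91.1 CPM.

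**Figure D3:**
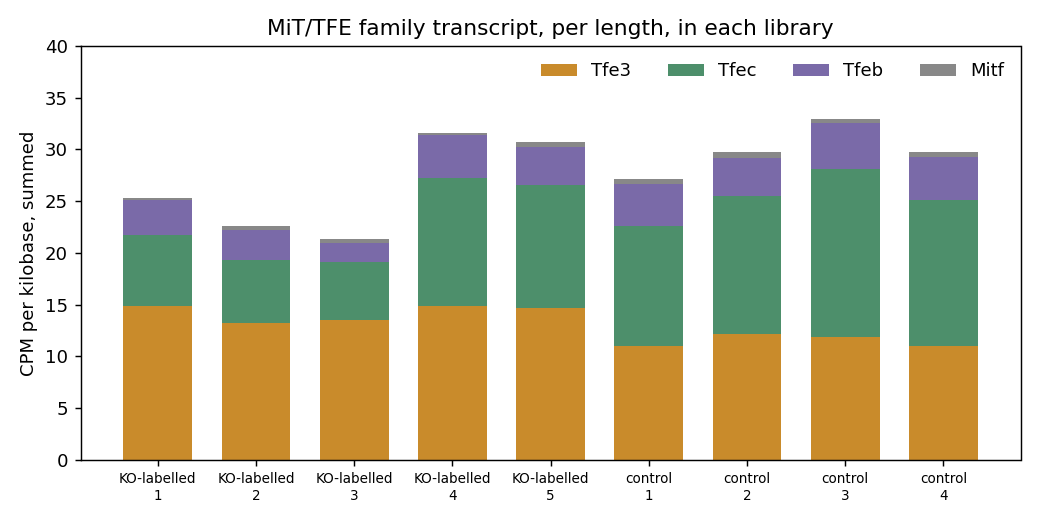
Stacked CPM per kilobase of exon model of Tfe3, Tfec, Tfeb and Mitf in each library, libraries labelled knockout left and controls right. Tfe3 is the largest part in all 5 libraries labelled knockout, at 47.0% to 63.2% of the sum, and Tfec in all 4 controls, at 42.7% to 49.5%. The order in controls depends on the exon model lengths: in CPM, Tfe3 exceeds Tfec in every library.

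Nutrient-sensing regulators, which decide where TFEB and TFE3 reside in the cell, were mostly not called: of 16 tested of 18, 2 were higher, 1 lower and 13 not called, at a median log2 fold change of 0.03. Fnip1, the folliculin partner, averaged 57.2 ± 9.02 CPM in libraries labelled knockout and 79.3 ± 8.52 CPM in controls (log2 fold change -0.47 ± 0.13, SE, edgeR adjusted p = 0.0199), a call that ended without control 3. The calcineurin subunit genes Ppp3r1 and Ppp3cb, whose phosphatase activates TFEB, had log2 fold changes of 0.24 and 0.21. The Ppp3cb call ended in 13 of 20 alternatives (among them without every library except control 4) and the Ppp3r1 call in 4, among them without control 2 or 4. With single libraries left out, 0 or 1 of these regulators were higher (0 without control 2, 1 without each other library), and 0 to 2 lower (2 without control 1, 0 without control 3). Mcoln1, the lysosomal calcium channel gene, had a log2 fold change of -0.30 and was not called.

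Lysosomal CLEAR genes, which carry the sites TFEB and TFE3 bind, included 2 higher, 5 lower and 18 not called of 25 tested, with a median log2 fold change of 0.01. Ctsd, the gene of cathepsin D, fell to 196 ± 41.6 CPM in libraries labelled knockout, against 422 ± 34.2 CPM in controls (log2 fold change -1.11 ± 0.16, SE, edgeR adjusted p = 0.000918). Hexa, a hexosaminidase subunit gene, fell by 0.55 on the log2 scale. Gla, the alpha-galactosidase gene, rose to 34.5 ± 7.996 CPM in libraries labelled knockout, against 18.8 ± 3.16 CPM in controls (log2 fold change 0.88 ± 0.18, SE, edgeR adjusted p = 0.00550). The higher count was 4 without library labelled knockout 3 and 1 without control 2, and the lower count was 3 without control 1 or 3. Of 4 tested of 7 macrophage and osteoclast targets of the family, 0 were called in either direction by edgeR, DESeq2 or limma-voom and 0 had an unadjusted p under 0.05, with Ctsk at 10.9 ± 2.96 CPM in libraries labelled knockout and 9.42 ± 1.70 CPM in controls.

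Meox2 and Tcf15, the capillary factors of heart, were at or near the limit of detection in liver endothelium, so their transcripts do not mark these cells. A library with 0 counts allows up to 3 counts, which is 0.0780 to 0.1105 CPM at these depths, for counting error only. Meox2 (ENSMUSG00000036144, chromosome 12, 37108540 to 37179534, plus strand) had 0, 4, 26, 1 and 3 counts in libraries labelled knockout 1 to 5 and 0, 0, 2 and 7 counts in controls 1 to 4. Of the 34 counts in libraries labelled knockout, 26 came from library 3, so no difference is read from the sums. Tcf15 (ENSMUSG00000068079, chromosome 2, 152143561 to 152149097, plus strand) had 3, 8, 1, 2 and 0 counts in libraries labelled knockout 1 to 5 and 9, 10, 9 and 9 counts in controls. All libraries labelled knockout were below all controls, at the closest 8 counts against 9. Pooled, Tcf15 stood at 0.0896 CPM in libraries labelled knockout (95% exact Poisson interval 0.0490 to 0.150) and 0.289 CPM in controls (0.203 to 0.398). These intervals cover counting error only and leave out the spread between libraries, so they do not test the groups. In a fit with no count filter, the log2 fold changes were -1.64 ± 0.71 for Tcf15 (SE, edgeR adjusted p = 0.159) and 1.45 ± 1.19 for Meox2 (SE, edgeR adjusted p = 0.460).

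Among the relatives and partners of these factors, 0 were higher and 2 lower of 7 tested of 9, at a median log2 fold change of -0.45. Tcf3, the E protein gene whose product pairs with TCF15, fell to 89.3 ± 8.29 CPM in libraries labelled knockout, against 122 ± 6.37 CPM in controls (log2 fold change -0.45 ± 0.08, SE, edgeR adjusted p = 0.00274). Id2, an inhibitor that sequesters E proteins, averaged 64.7 ± 20.7 CPM in libraries labelled knockout and 99.2 ± 2.51 CPM in controls (log2 fold change -0.62 ± 0.19, SE, edgeR adjusted p = 0.0396), and the call ended in 12 of 20 alternatives, among them the left-out fits without each control and without each library labelled knockout other than 2. Id1 and Id4 had log2 fold changes of -0.76 and -0.69 that did not pass. Without libraries labelled knockout 2 and 3, 3 of the list were lower.

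Fatty acid uptake genes, the set that MEOX2 and TCF15 serve in heart, included 3 higher, 1 lower and 6 not called of 10, with a median log2 fold change of 0.53. Angptl4, an inhibitor of lipoprotein lipase, rose to 36.7 ± 19.8 CPM in libraries labelled knockout, against 2.40 ± 0.279 CPM in controls (log2 fold change 3.93 ± 0.41, SE, edgeR adjusted p = 0.000172). Fabp4 and Fabp5, fatty acid carrier genes, rose by log2 2.06 and 2.54, and Fabp5 rose by 1.76 without libraries labelled knockout 2 and 3. Gpihbp1, which anchors lipoprotein lipase, fell by 2.53 on the log2 scale. Cd36, the fatty acid translocase gene, had a log2 fold change of 0.11 and was not called. The lower count was 3 without libraries labelled knockout 2 and 3, and 2 without library 2 alone.

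Ordered by level per length, the controls ran Maf, Gata4, Tfec, Tfe3, Tfeb, Mitf, Tcf15, Meox2. The order of Tfec and Tfe3 in controls depends on the exon model lengths, since in CPM Tfe3 was higher in every control. In libraries labelled knockout Maf stood at 132 ± 39.97 CPM per kilobase (SD, n = 5) and Gata4 at 94.3 ± 5.97, against 207 ± 25.5 and 140.5 ± 13.4 in controls (n = 4). Maf exceeded Gata4 without overlap in controls, while in libraries labelled knockout Maf, at 86.5 to 169.7 CPM per kilobase, overlapped Gata4, at 87.1 to 101. Tfe3 at 13.3 to 14.9 lay above Tfec at 5.67 to 12.4 in libraries labelled knockout, and in controls Tfec at 11.6 to 16.3 overlapped Tfe3 at 10.98 to 12.2. Tfeb lay below both without overlap, at 1.76 to 4.14 in libraries labelled knockout and 3.72 to 4.43 in controls. Mitf stayed at 0.211 to 0.420 and 0.376 to 0.555 CPM per kilobase, and Meox2 and Tcf15 overlapped each other in libraries labelled knockout.

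**Figure D4:**
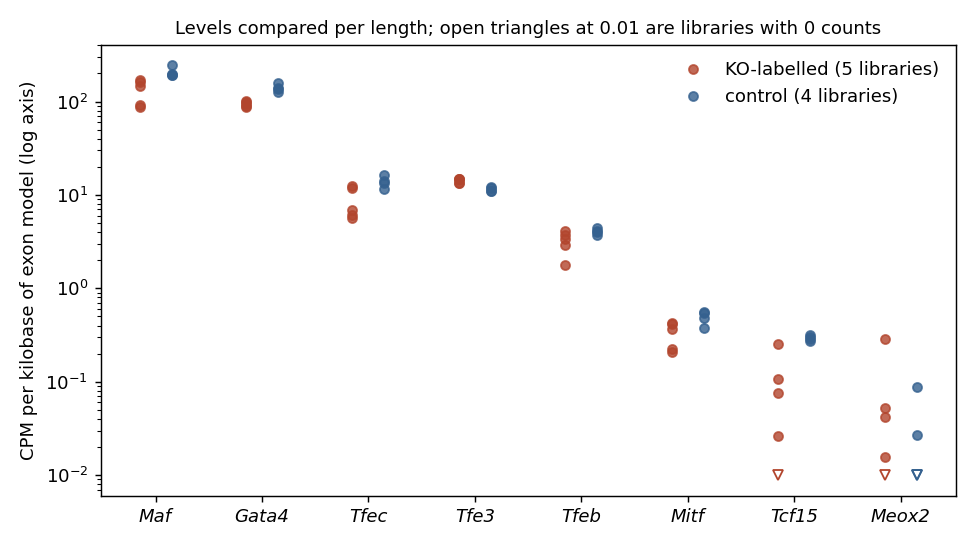
CPM per kilobase of exon model on a log axis for the 8 factors, each point a library, libraries labelled knockout left of controls and open triangles for 0 counts. Maf and Gata4 exceed 86 in every library, the MiT/TFE factors Tfec, Tfe3 and Tfeb lie between 1.76 and 16.3, and Mitf, Tcf15 and Meox2 stay below 0.6.

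The libraries labelled knockout differed among themselves in a way that several members shared, seen after their values were known. Libraries 4 and 5 had the highest Maf, Tfec and Tfeb, and libraries 2 and 3 the lowest, with library 1 between them. Tfe3 was also lowest in 2 and 3, at 123 and 125 CPM, though it differed from the other members in direction between the groups. Gata4 did not follow this order, with 394 CPM in library 2 and 340.1 CPM in library 4, nor did Mitf. Libraries 2 and 3 stood apart across the table as well. Among controls, control 3, the only female one, had the highest Maf, Tfec and Tfeb and the lowest Mitf.

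Sinusoidal endothelial markers were mostly lower or not called: of 17 tested of 18, 8 fell, 1 rose and 8 did not pass, with a median log2 fold change of -0.87, while Gata4 itself was at -0.58. Clec4g, the sinusoidal lectin gene, fell by 2.82 and Stab1 by 1.36 on the log2 scale, and Stab2, at -0.28, was not called. Lyve1, the hyaluronan receptor gene, had 14.5, 937, 259.7, 29.5 and 28.1 CPM in libraries labelled knockout 1 to 5, against 815 to 1191 CPM in controls, and was not called (edgeR adjusted p = 0.200). Lyve1 was lower without libraries labelled knockout 2 and 3, at -5.38 ± 0.30 on the log2 scale (SE, edgeR adjusted p = 1.56e-05), and 9 genes of the list were lower. Only libraries 2 and 3 of those labelled knockout kept over 100 CPM of it, the same 2 that had the lowest Maf.

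Continuous capillary features appear in mouse liver endothelium that lacks GATA4. The list of such markers read here is mixed, so its counts do not tell whether that state was present. It went both ways: 3 higher, 3 lower and 12 not called of 18 tested of 19, with a median log2 fold change of -0.19. Without libraries labelled knockout 2 and 3 the counts were 2 higher and 8 lower, and 5 were lower without library 2 alone. Plvap, the gene of the fenestral diaphragm protein and so not particular to continuous capillaries, rose by 2.29 on the log2 scale. The other higher genes were Igfbp5 and Car4. Igfbp5 averaged 222 ± 223 CPM in libraries labelled knockout and 20.3 ± 12.3 CPM in controls, and Car4 1.44 and 0.245 CPM. Gpihbp1, also in the fatty acid uptake list, fell by 2.53, Ly6a by 2.21 and Cav2, a caveolin gene, by 1.07. Cd34 and Emcn, both common markers of continuous endothelium, were not called at -0.17 and 0.40.

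**Figure D5:**
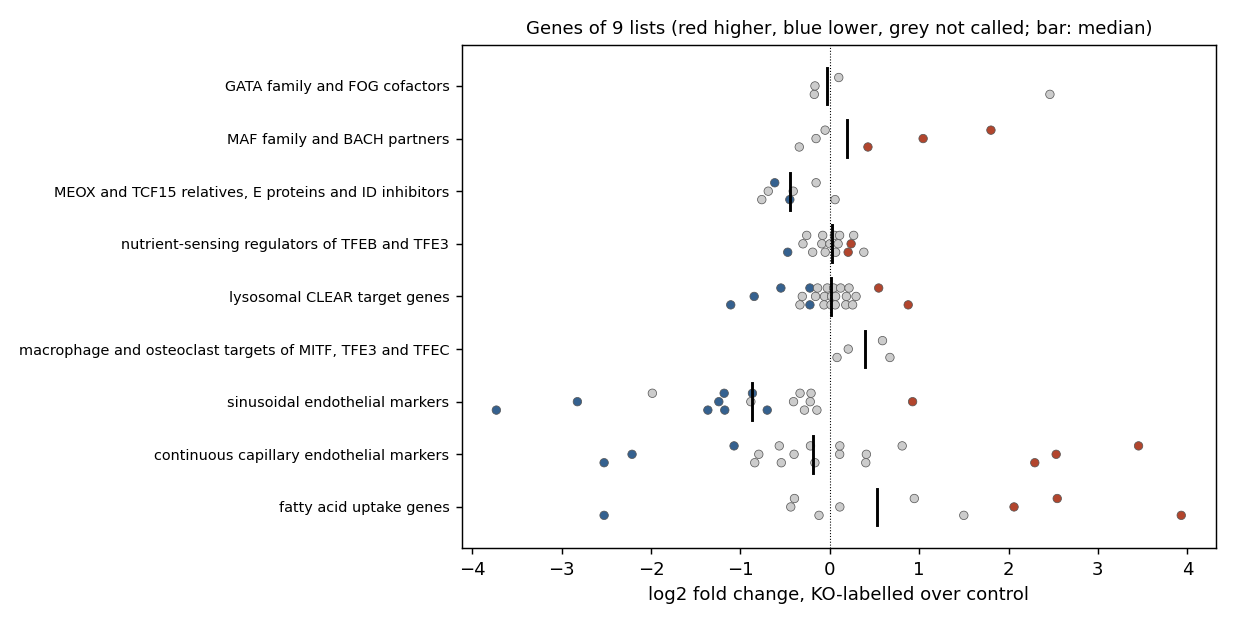
Log2 fold change, libraries labelled knockout over controls, for tested genes of the 9 lists around the factors, coloured by call, with a bar at each median. The sinusoidal list has its median at -0.87, and the other 8 medians lie between -0.45 and 0.53.

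Of the other cells the gate could hold, hepatocyte markers made 20.6 to 210.2 CPM in libraries labelled knockout and 158 to 363 CPM in controls, with 0 of 10 called by edgeR, 3 at an unadjusted p under 0.05, and 3 called lower by DESeq2 and by limma-voom. Of cholangiocyte markers 3 of 6 were tested and of lymphocyte markers 3 of 7, at median log2 fold changes of 0.69 and 0.80. Both lists had 0 calls by edgeR, DESeq2 and limma-voom and 0 at an unadjusted p under 0.05. Each stayed at or below 17.0 CPM in sum. Erythroid and platelet markers made 37.7 to 77.1 CPM in libraries labelled knockout and 19.5 to 31.5 CPM in controls, with Pf4, Ppbp and Gp9 higher. The Pf4 call held in all 20 alternatives, while the Ppbp call ended in 10 of 19, among them limma-voom, the sex term, and without library labelled knockout 2 or 3, both of these, or control 1, 2 or 4. The Gp9 call held in the 14 alternatives that tested it. Without both libraries labelled knockout 2 and 3, Gp9 was not among the tested genes and Pf4 alone was called. Arterial and portal markers made 1042 to 1451 CPM in libraries labelled knockout and 3214 to 4511 CPM in controls, with 1 higher and 2 lower of 8. Most of that sum in controls was Ltbp4, a matrix protein gene, at 205 to 492 CPM in libraries labelled knockout and 2560.4 to 3752 CPM in controls. The other 7 summed to 741 to 959.6 CPM in libraries labelled knockout and 653 to 772 CPM in controls, a sum that hides single genes. Gja5, the other lower gene, averaged 0.393 ± 0.332 CPM in libraries labelled knockout (SD, n = 5) and 8.15 ± 4.69 CPM in controls (n = 4). Its log2 fold change was -4.37 ± 0.64 (SE, edgeR adjusted p = 0.00110). Cd9 was the higher gene, at a log2 fold change of 1.42, and 5 were not called. Of the 3 lymphatic markers tested Prox1 rose. Their part in the members' values was not tested.

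By likeness of profile, measured as the root mean square difference of gene-centred log2 CPM over the 9 libraries, the genes nearest to Gata4 were Tgfbr1, a TGF-beta receptor gene, at 0.0803, and Nectin3, an adhesion gene, at 0.0866. The genes nearest to Tfe3 were Ilvbl at 0.0412 and Actr8, a chromatin remodelling subunit gene, at 0.0468. Tgfbr1 averaged 28.5 ± 1.48 CPM in libraries labelled knockout and 41.3 ± 3.68 CPM in controls. Actr8 averaged 47.4 ± 2.10 CPM in libraries labelled knockout and 39.0 ± 1.34 CPM in controls.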

How the data were processed

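The values are raw counts in a table the authors deposited, with 52636 Ensembl genes and 9 libraries. The submitters' processing notes name GRCm38, STAR 2.7.6a and FastQC 0.11.5. Counting program, annotation release and strandedness: not given in the sources used here, and unstranded counting would merge reads of overlapping genes on opposite strands. Per the labels, an unstranded or a stranded kit was used, without saying for which library. Groups and replicate numbers came from the sample titles, and columns were matched to sample descriptions, with 0 left unused.

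Symbols, positions, overlaps and exon models came from GENCODE M21 (52489 identifiers matched, 147 not). Genes were filtered with filterByExpr (minimum count 10, minimum total 15), leaving 14583, scaled by TMM and compared by robust glmQLFit and glmQLFTest without covariates (edgeR 4.0.16, R 4.3.3), with Benjamini-Hochberg adjustment over all tested genes. The SE of a log2 fold change was its absolute value divided by the square root of F. CPM used the same scaling. Promoter sequences came from RefSeq (GRCm38.p6). The members and the 9 gene lists and 8 marker lists around them were chosen with earlier results of these data known. From each list up to 4 genes with the smallest p could be named, and others are named where the text describes a gene's role, chosen after their values were seen, among them Stab2, Lyve1, Mafg, Cd34, Emcn and Cd36. Alternatives were DESeq2 1.42.0, limma-voom (limma 3.58.1), 3 scalings, 2 filters, a replicate block, a sex term and left-out libraries. The test was first checked on simulated data. There it recovered 60 of the 99 genes changed 2-fold and 99 of the 99 changed 4-fold, and called 10 unchanged genes. A member that did not pass can therefore still differ between the groups. Within groups, every pair of libraries differed beyond sampling noise (20.3 to 182 chi-square units per degree of freedom), so none was a duplicate.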

Additional observations from a re-analysis of the deposited data

Results flagged for a closer look

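Of 16 sets of values (8 members in each of the 2 groups), 2 held a library that stood far from the others by Dixon's criterion at the 95% level, where chance marks about 1 set in 20. Control 3 had 2020.0 CPM of Maf, against 1569 to 1639 CPM in the other 3 controls, and it had the highest Tfec and Tfeb of the controls as well. It was also the only female control by Xist and Ddx3y, so among controls sex cannot be told apart from this library. Library labelled knockout 3 had 0.676 CPM of Meox2, from 26 counts, against 0 to 4 counts in the other 4 libraries labelled knockout.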

How the results depend on the processing

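Gata4 kept its direction and call in all 20 alternatives (log2 fold change -0.62 to -0.51), and Tfeb and Mitf stayed uncalled in the 20 and 19 that tested them. Mitf did not pass the filter of 5 CPM in 4 libraries. No member changed direction in any alternative. Maf, not called in the fit reported, was called in 8 of 20 alternatives and not in 12. It was called by DESeq2 (-0.64), limma-voom (-0.69), the 5 CPM filter (-0.65) and a sex term (-0.75). Without libraries labelled knockout 2 and 3 (-0.36), or without 4 (-0.76) or 5 (-0.74), Maf was called too. Replicates 1 to 4 with no replicate block, added after seeing the data, also called it (-0.74). That is the same fit as without library labelled knockout 5, counted separately among the 20. Tfec was called in 7 of 20 alternatives and not in 13. It was called by DESeq2 (-0.69), limma-voom (-0.77), a sex term (-0.90) and a replicate block (-0.90). Without library labelled knockout 4 (-0.86) or 5 (-0.83) it was called too, and replicates 1 to 4 with no replicate block repeated the latter fit. With each library left out, Maf ran from -0.76 to -0.53, Tfec from -0.86 to -0.57 and Tfe3 from 0.28 to 0.34. The members called lower, 1 in the fit reported, numbered 3 by DESeq2, limma-voom, the sex term and replicates 1 to 4, 2 with the 5 CPM filter or without libraries labelled knockout 2 and 3, and 1 to 3 with each library left out.

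The shared replicate numbers did not pair the libraries: the correlations of same-numbered deviations were 0.29, -0.03, -0.02 and -0.33, and only number 1 correlated best with its own. With a replicate block, Tfe3 was no longer called (0.30, edgeR adjusted p = 0.0789), Tfec was called (-0.90), 0 members were higher and 2 lower, and over all genes 1288 were higher and 1370 lower, against 2110 and 2161. Scaling moved the median of all genes to at most 0.08, by library totals. Among list counts, lower CLEAR genes ran from 3 to 6 and higher nutrient-sensing regulators from 0 to 2 over the alternatives. Mitf, Meox2 and Tcf15 had at most 109 counts in any library.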
